A study of Mus musculus with 8 samples.

Results

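The RNA of ileal epithelium was compared between 2 DDX5KO mice, which lacked DDX5 in the epithelium, and 2 WT mice. All 4 ileum libraries of the 8 libraries in the series were used. The rule took every gene that passed a filter on low counts in the ileum table, after Gm10800, Gm10801 and Gm21738, which resemble genomic repeats, had been taken out of the counts. This left 14208 genes of 38649 listed, of which 12139 are protein-coding. The WT mice carried unmodified alleles, DDX5(+/+), and the DDX5KO mice carried floxed alleles, DDX5(fl/fl). Both groups carried Vil1Cre, a Cre recombinase driven by the Villin1 promoter of gut epithelial cells, so the control mice expressed the recombinase too. The mice were 8 weeks old by the labels and untreated, and the methods describe littermates. The ileum was taken as the distal stretch of the small intestine, and epithelial cells were shaken off with EDTA without a sort for cell type. Libraries were made from ribosome-depleted RNA with a stranded kit, and each library is 1 mouse.

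DDX5 is a DEAD-box RNA helicase, an enzyme that remodels RNA and RNA-protein complexes with the energy of ATP. It takes part in transcription, splicing, microRNA processing and the decay of RNA, and its close relative is DDX17. The ileal epithelium is a single layer that holds absorptive enterocytes, which recover bile acids and lipids, and secretory lineages. The secretory cells are mucus-forming goblet cells, antimicrobial Paneth cells at the crypt base, hormone-releasing enteroendocrine cells and chemosensory tuft cells. The comparison asks which transcripts of this layer depend on DDX5 in the unchallenged animal.

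Total counts on genes ranged from 11571061 to 22984283 per library. The libraries differed in their share of the 3 repeat-like genes, which took 4.05% and 3.93% of counts in WT replicates 1 and 2, 0.226% in DDX5KO replicate 1 and 19.5% in DDX5KO replicate 2. Olfactory receptor genes, which the gut epithelium is not known to use, followed the same order, with 1390 and 697 counts in WT replicates 1 and 2, 197 in DDX5KO replicate 1 and 1420 in DDX5KO replicate 2, summed over 895 genes. The 2 DDX5KO libraries therefore lay on opposite sides of the WT libraries. The counts of the main gene groups are given with and without DDX5KO replicate 2, which held the highest share. Levels are in CPM, which are counts divided by the TMM-normalized library size, with the repeat-like genes left out. On this scale the olfactory receptor genes summed to 62.6 and 47.0 CPM in WT and 18.1 and 149 CPM in DDX5KO replicates 1 and 2. Epithelial markers were abundant in all 4 libraries, with Epcam, an adhesion molecule of all gut epithelial cells, between 1836 and 2743 CPM. The bile acid binding protein Fabp6, which marks the ileum, lay between 868 and 2103 CPM. Markers of other cells were lower. Of 18 B and plasma cell genes 1 was tested and the list summed to between 4.86 and 14.3 CPM per library. The 20 macrophage and dendritic cell genes summed to between 15.1 and 27.6 CPM. Mast cell and granulocyte genes summed to between 73.9 and 109 CPM, and 30 intraepithelial T cell genes to between 80.7 and 148 CPM. Ptprc, a member of the T cell list, lay between 41.2 and 65.9 CPM. Cd3e, a T cell receptor subunit, lay between 0.877 and 2.07 CPM.

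Ddx5 (ENSMUSG00000020719.14, chromosome 11 of GRCm38 from 106780355 to 106789185, minus strand) was 683 and 681 CPM in WT replicates 1 and 2 and 333 and 321 CPM in DDX5KO replicates 1 and 2. Both DDX5KO libraries lay below both WT libraries. The log2 fold change of the targeted gene was −1.06 (SE 0.16), with an unadjusted p of 0.000127 and an adjusted p of 0.0563 from edgeR's quasi-likelihood test. The table sums reads over all exons of a gene, so it does not separate floxed exons from the rest of the transcript. Of the 50-base stretches of Ddx5 transcripts, 14.6% occur in transcripts of other genes too.

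Among all genes tested, 20 had an adjusted p under 0.05, which is 0.141% of the genes. Of these, 6 were lower (0.0422%) and 14 were higher (0.0985%) in DDX5KO. This count depends on the fit. With the replicate block, which pairs mice of the same number, it was 20, and without the block 1 gene, Slc8a1, passed. Leaving out DDX5KO replicate 2, which ends the pairing, also gave 20 genes, of which 2 were among the 20. The study applied a wider criterion, an unadjusted p under 0.05 together with an absolute log2 fold change of 0.5 or more. It was met by 327 lower protein-coding genes (2.69% of those tested) and by 456 higher ones (3.76%). Together these are 783 genes. Without the block 615 genes met the criterion, and without DDX5KO replicate 2 it was 1312. "Met the criterion" below refers to this second, unadjusted threshold, and "rose" and "fell" are kept for an adjusted p under 0.05. The shares of all protein-coding genes beside the ileum lists come from the fit with the block and all 4 libraries. Other fits of the ileum called other numbers of genes. List counts from those fits therefore cannot be read against these shares. Low genes made up more of the higher group: 43.0% of the 456 genes had a mean under 5 CPM, against 25.1% of the 327 lower genes and 19.2% of all protein-coding genes tested. The part of the background in DDX5KO replicate 2 in this was not tested.

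**Figure D1:**
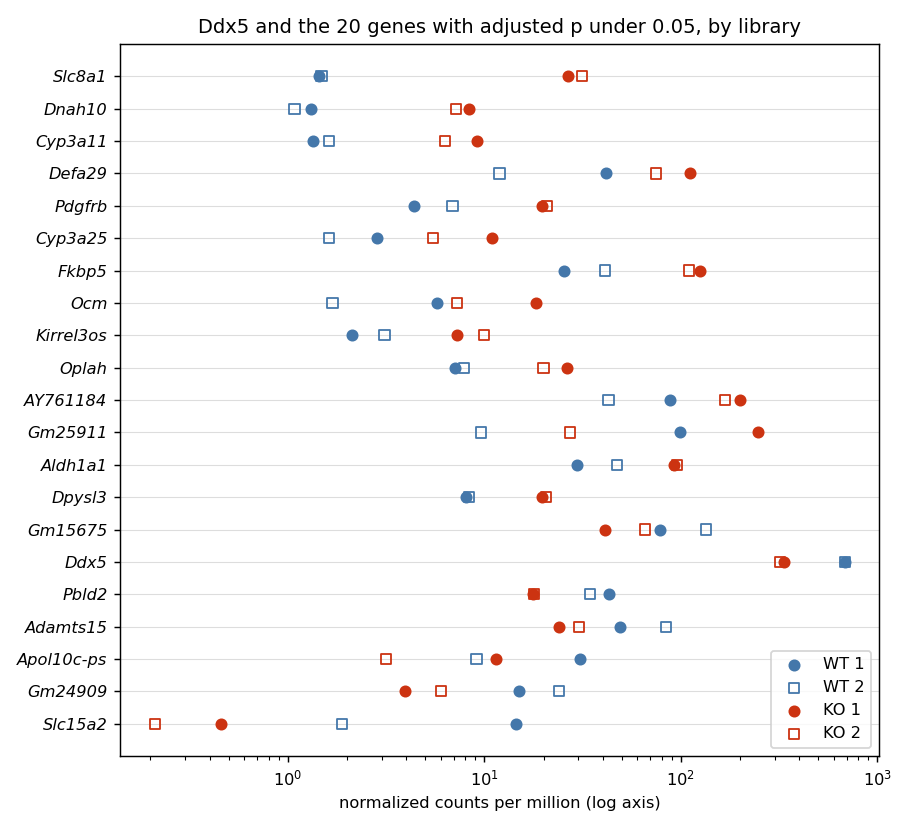
Normalized CPM on a log axis for Ddx5 and the 20 genes with an adjusted p under 0.05, ordered by log2 fold change from lowest at the bottom to highest at the top. Each point is 1 mouse, blue for WT and red for DDX5KO, a filled circle for replicate 1 and an open square for replicate 2; Slc8a1 separates the genotypes furthest upward, and Slc15a2 spans 1.89 to 14.5 CPM between the WT mice alone.

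Slc8a1, which encodes a sodium-calcium exchanger of the plasma membrane, showed the largest rise. It was 1.44 and 1.49 CPM in WT replicates 1 and 2, from 32 and 22 counts, and 26.6 and 31.4 CPM in DDX5KO replicates 1 and 2, from 289 and 299 counts. The groups were far apart and the mice of each genotype were alike. The log2 fold change was 4.29 (SE 0.20), a 19.5-fold difference (adjusted p = 0.000101 with the block and adjusted p = 0.00269 without it, edgeR's quasi-likelihood test). Only 0.00529% of its 50-base stretches occur in other transcripts.

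Slc15a2, a transporter that takes up small peptides with protons, fell most. It was 14.5 and 1.89 CPM in WT replicates 1 and 2 and 0.459 and 0.210 CPM in DDX5KO replicates 1 and 2. Each DDX5KO mouse lay below both WT mice, but the WT mice differed from each other by more than the lower WT mouse differed from the higher DDX5KO mouse on the linear scale. The log2 fold change was −4.55 (SE 0.44, adjusted p = 0.0156 with the block and adjusted p = 0.485 without it). The colon libraries of the same mice held 22.8 and 1.91 CPM in WT replicates 1 and 2 and 1.46 and 0.0502 CPM in DDX5KO replicates 1 and 2, the same order of the 4 mice.

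Other protein-coding genes that fell were Adamts15 and Pbld2. Adamts15, a secreted protease of the extracellular matrix (chromosome 9, 30899155 to 30922452), went from 48.7 and 84.2 CPM in WT to 23.9 and 30.4 CPM in DDX5KO replicates 1 and 2, with a log2 fold change of −1.25 (SE 0.15, adjusted p = 0.0288). Pbld2 (chromosome 10, 63024315 to 63058813) went from 43.1 and 34.4 CPM to 17.6 and 17.9 CPM, with a log2 fold change of −1.12 (SE 0.16, adjusted p = 0.0455). The groups did not overlap for either gene. Non-coding genes that fell were the misc_RNA gene Gm24909, the pseudogene Apol10c-ps and the lincRNA gene Gm15675. Apol10c-ps overlapped between the groups, with 30.7 and 9.11 CPM in WT and 11.5 and 3.15 CPM in DDX5KO replicates 1 and 2, and 29.4% of its 50-base stretches occur elsewhere.

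Fkbp5, a co-chaperone of steroid receptors and a known glucocorticoid target (chromosome 17, 28399094 to 28517527), rose from 25.3 and 41.0 CPM in WT to 125 and 110 CPM in DDX5KO replicates 1 and 2. Its log2 fold change was 1.86 (SE 0.20, adjusted p = 0.0202). Of the other 9 glucocorticoid response genes tested, Hsd11b2, which inactivates glucocorticoids, met the criterion with a log2 fold change of 0.63. Aldh1a1, which makes retinoic acid from retinal, rose from 29.7 and 47.4 CPM to 91.9 and 95.7 CPM, a log2 fold change of 1.32 (SE 0.17, adjusted p = 0.0300). Other genes of vitamin A metabolism that met the criterion, of 18 tested, were Bco1 (1.18) and Rarb (1.02), both higher. Bco1 cleaves beta-carotene and Rarb is a retinoic acid receptor. Among all protein-coding genes tested, 3.76% met the criterion higher and 2.69% lower. Oplah, the 5-oxoprolinase of glutathione turnover (chromosome 15, 76296601 to 76328015), rose from 7.07 and 7.90 CPM to 26.5 and 20.0 CPM, a log2 fold change of 1.64 (SE 0.19, adjusted p = 0.0243). Ggt1 and Chac1, which break glutathione down, were higher at the criterion with log2 fold changes of 0.63 and 0.92, and the quinone reductase Nqo1 was lower at −0.80 (SE 0.16, adjusted p = 0.0976). The 19 genes of glutathione and oxidant response tested had a median log2 fold change of 0.01.

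Pdgfrb, a receptor of platelet-derived growth factor best known from fibroblasts and pericytes, rose from 4.37 and 6.88 CPM to 19.7 and 20.9 CPM, a log2 fold change of 1.89 (SE 0.20, adjusted p = 0.0156). Of the 16 fibroblast and smooth muscle genes listed, 3 were tested and Pdgfrb alone met the criterion. The list summed to 13.2 and 11.3 CPM in WT and 31.1 and 28.3 CPM in DDX5KO replicates 1 and 2, a sum that includes Pdgfrb. The collagen gene Col3a1 was 1.17 and 0.742 CPM in WT and 1.38 and 0.946 CPM in DDX5KO. In the colon of these mice Pdgfrb had a log2 fold change of 1.61 (SE 0.16, adjusted p = 0.124). Dnah10, a dynein heavy chain of motile cilia, rose from 1.31 and 1.08 CPM to 8.36 and 7.15 CPM, a log2 fold change of 2.69 (SE 0.28, adjusted p = 0.0156). Dpysl3, a microtubule-binding protein known from neurons, rose from 8.06 and 8.37 CPM to 19.7 and 20.6 CPM, a log2 fold change of 1.29 (SE 0.16, adjusted p = 0.0288). Ocm, the calcium-binding protein oncomodulin, rose by 1.82 on the log2 scale (SE 0.22, adjusted p = 0.0287), with WT at 5.76 and 1.69 CPM and DDX5KO at 18.4 and 7.25 CPM. The antisense gene Kirrel3os (1.73) and Gm25911, annotated as a miRNA gene (1.40), rose as well. Gm25911 was 99.0 and 9.58 CPM in WT and 247 and 27.3 CPM in DDX5KO, so the libraries followed the replicate number more than the genotype.

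Cytochrome P450 enzymes oxidize drugs, steroids and fatty acids. Of 22 tested from families 1 to 4, 8 met the criterion higher and 0 lower, against 3.76% and 2.69% of all protein-coding genes. The median log2 fold change of the 22 was 0.29, against 0.01 over all protein-coding genes tested. Cyp3a11, the main drug-oxidizing enzyme of the mouse gut and liver, rose from 1.35 and 1.62 CPM in WT to 9.19 and 6.31 CPM in DDX5KO replicates 1 and 2 (log2 fold change 2.39, SE 0.30, adjusted p = 0.0291). Cyp3a25 rose from 2.84 and 1.62 CPM to 10.9 and 5.47 CPM (log2 fold change 1.87, SE 0.25, adjusted p = 0.0406). Cyp3a44, Cyp4f13, Cyp2d22, Cyp2d26, Cyp2c55 and Cyp2r1 met the criterion with log2 fold changes from 0.62 to 2.18. Cyp3a25 and Cyp3a44 share 26.8% and 26.5% of their 50-base stretches with other transcripts, so reads of these neighbours may have gone uncounted. Without DDX5KO replicate 2 the count was also 8, but Cyp2d26, Cyp2c55 and Cyp2r1 were not in it, and Cyp4v3 (0.79), Cyp4f14 (0.53) and Cyp4b1 (0.85) were. The count lay between 5 and 8 over 13 alternatives, with 5 without WT replicate 1 and 5 without DDX5KO replicate 1.

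Among transporters and conjugating enzymes there was no common direction. Over all protein-coding genes tested, 2.69% met the criterion lower and 3.76% higher. The efflux pumps Abcb1a (0.65) and Abcc2 (0.72) were higher at the criterion, and the sterol half-transporter Abcg8 (−0.54), Abcc4 (−0.60) and Abca2 (−0.52) were lower, of 34 ABC transporters tested with a median of −0.01. Of 38 conjugating enzymes tested, Gsta3 (−1.33) and Gstm4 (−1.04) were lower and Gstm3 (0.84) and Gsta1 (0.67) higher. Gsta3 held only 6 and 10 counts in DDX5KO replicates 1 and 2, and Gstm3 overlapped between the genotypes. Gstm3 and Gsta1 share 28.8% and 90.5% of their 50-base stretches with other transcripts.

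**Figure D2:**
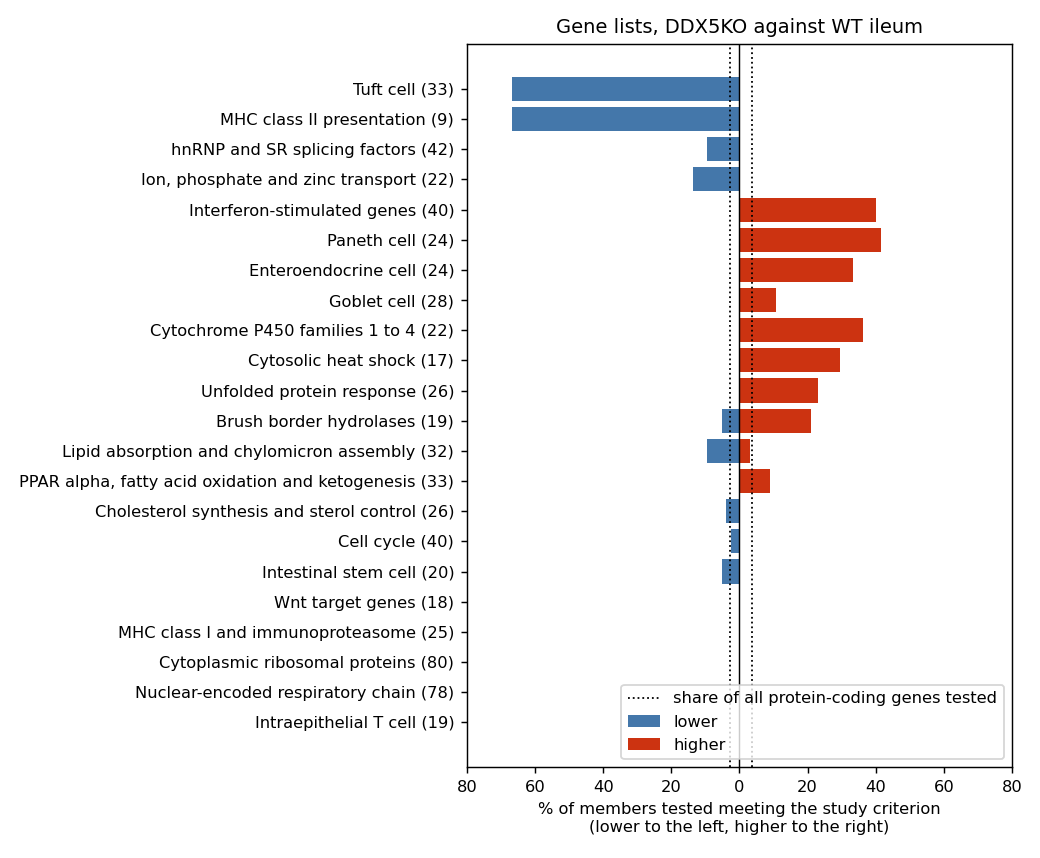
Share in percent of the tested members of 22 gene lists that met the criterion, lower in DDX5KO to the left in blue and higher to the right in red, with the number tested in brackets. Dotted lines mark the shares of all protein-coding genes tested, 2.69% lower and 3.76% higher; tuft cell genes extend furthest to the left with MHC class II genes, and lists such as ribosomal proteins have no bar.

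Tuft cell genes were lower. Of 34 listed genes 33 were tested, 22 met the criterion lower (66.7%, against 2.69% of all protein-coding genes) and 0 met it higher. Their median log2 fold change was −0.61, and 25 members had both DDX5KO libraries below both WT libraries, a pattern that 18.6% of all protein-coding genes tested showed. No member had an adjusted p under 0.05 in edgeR's quasi-likelihood test; the smallest was 0.0580. In bulk libraries, fewer tuft cells and less RNA per tuft cell cannot be told apart.

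Tuft cells sense luminal metabolites with a signalling chain known from taste cells. Gnat3, the G protein alpha subunit gustducin, was 9.23 and 15.5 CPM in WT replicates 1 and 2 and 4.32 and 4.10 CPM in DDX5KO replicates 1 and 2, a log2 fold change of −1.50 (SE 0.24, adjusted p = 0.0580). The cation channel Trpm5 was 96.6 and 152 CPM in WT and 68.0 and 86.3 CPM in DDX5KO, a log2 fold change of −0.66 (SE 0.14, adjusted p = 0.125). Both genes had the higher WT level in replicate 2. Plcb2, the phospholipase between them, stood at −0.49 on the log2 scale and missed the fold threshold.

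Structural and regulatory genes of the lineage were lower too. Dclk1, a microtubule-associated kinase that is the usual marker of tuft cells, was 124 and 191 CPM in WT and 74.9 and 101 CPM in DDX5KO, a log2 fold change of −0.82 (SE 0.13, adjusted p = 0.0580). Avil, the actin-binding protein advillin of the tuft, was 70.7 and 94.1 CPM in WT and 49.1 and 52.9 CPM in DDX5KO (−0.68, SE 0.14). Pou2f3, the transcription factor that specifies tuft cells, was 11.8 and 17.3 CPM in WT and 7.35 and 11.8 CPM in DDX5KO, with a log2 fold change of −0.62 (SE 0.17, adjusted p = 0.224). Its partner in the lineage Gfi1b was low throughout, at 2.25 and 2.57 CPM in WT and 0.919 and 1.37 CPM in DDX5KO (−1.09, SE 0.39).

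Genes that tuft cells use to make lipid mediators were lower for 2 of the enzymes and not for others. Alox5, the 5-lipoxygenase that starts leukotriene synthesis, had a log2 fold change of −0.83 (SE 0.14), and Hpgds, which makes prostaglandin D2, of −0.77 (SE 0.18). Ptgs1, which feeds prostaglandin synthesis, had −0.06 and Ltc4s 0.05. The kinase and adaptor genes that tuft cells share with blood cells also met the criterion, with log2 fold changes of −0.95 for Rgs13, −0.87 for Sh2d6, −0.78 for Vav1 and −0.63 for Plcg2. Besides Ltc4s, members with a log2 fold change above 0 were Tas1r3, a taste receptor subunit, at 0.54, and Gng13 at 0.18.

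The tuft cell count was 18 without DDX5KO replicate 2, 14 without DDX5KO replicate 1 and 19 without the replicate block. It was 7 without WT replicate 2, which had the higher tuft cell levels: the 34 genes summed to 1393 and 1958 CPM in WT and 1119 and 1249 CPM in DDX5KO replicates 1 and 2. In the colon of the same mice, 18 of 30 tuft cell genes met the criterion lower and 1 higher, where 4.06% and 2.66% of all protein-coding genes did. The difference of the genotype effect between ileum and colon had an unadjusted p under 0.05 for 3 of 33 tuft cell genes, all less negative in the ileum, and the smallest adjusted p was 0.765.

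**Figure D3:**
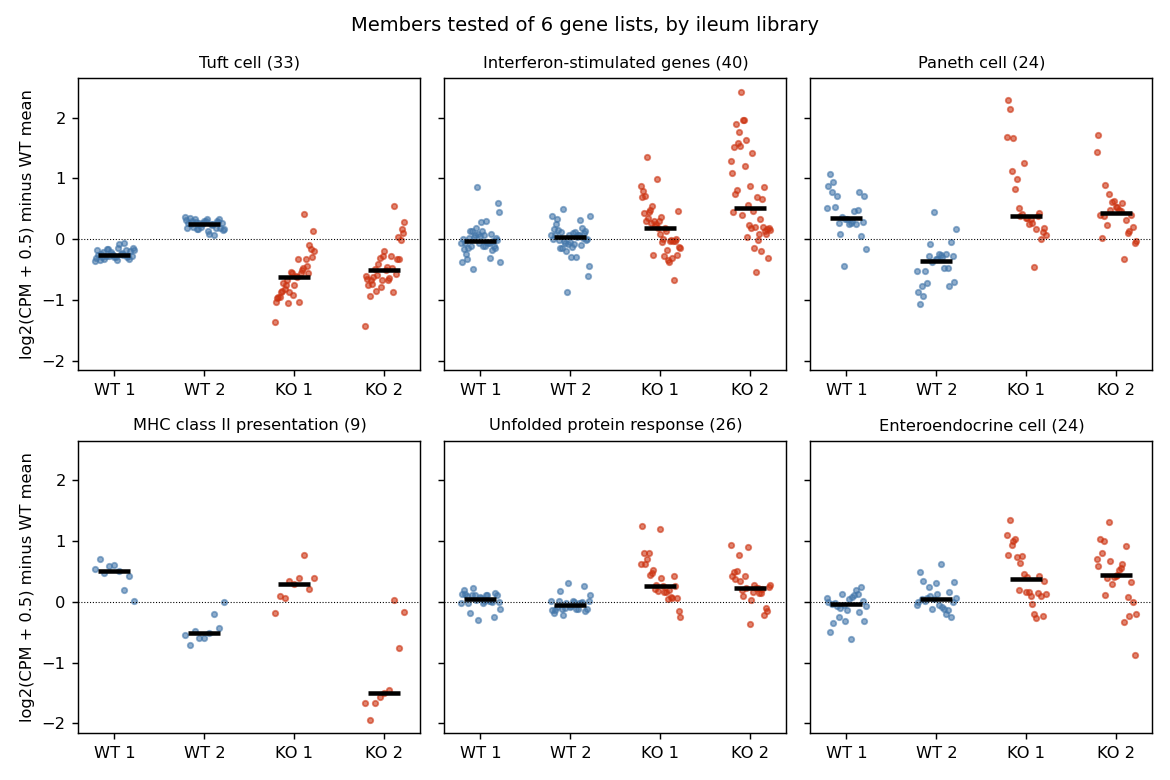
Each point is 1 tested gene of a list, placed by library along the x axis and by its log2(CPM + 0.5) minus the mean of the 2 WT libraries on the y axis; black bars are medians over the genes, blue is WT and red DDX5KO. Tuft cell medians were lower in both DDX5KO mice, MHC class II medians were lower in replicate 2 of each genotype, and interferon-stimulated genes stood highest in DDX5KO replicate 2.

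MHC class II presentation genes, which load peptides for helper T cells and which ileal epithelium expresses constitutively, were lower at the criterion for 6 of 9 tested, against 2.69% of all protein-coding genes. Ciita, the master transcription factor of the class II genes, was 67.9 and 31.9 CPM in WT replicates 1 and 2 and 41.0 and 14.4 CPM in DDX5KO replicates 1 and 2 (log2 fold change −0.92, SE 0.15, adjusted p = 0.0608). H2-Aa, an alpha chain, was 466 and 173 CPM in WT and 305 and 73.6 CPM in DDX5KO (−0.92, SE 0.18). H2-Ab1 was 373 and 164 CPM in WT and 314 and 83.6 CPM in DDX5KO (−0.61, SE 0.19), and the invariant chain Cd74 was 921 and 400 CPM in WT and 742 and 215 CPM in DDX5KO (−0.60, SE 0.19). Replicate 1 exceeded replicate 2 in both genotypes, and the groups overlapped for each of these genes. The count of 6 was 0 without the replicate block, 0 without WT replicate 1, 0 without DDX5KO replicate 2 and 1 without WT replicate 2. The median of the 9 genes was 0.25 without WT replicate 1 and 0.17 without DDX5KO replicate 2. The class I genes and the immunoproteasome, 25 tested, had 0 members at the criterion in either direction and a median of 0.02, with H2-D1 at 764 and 579 CPM in WT and 896 and 505 CPM in DDX5KO. The 14 interferon-inducible GTPases tested also had 0 at the criterion. Intraepithelial T cell genes, which are the other main immune signal of such a preparation, summed to 140 and 112 CPM in WT and 148 and 80.7 CPM in DDX5KO replicates 1 and 2, and 0 of 19 met the criterion; their part in the class II values was not tested.

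Interferon-stimulated genes encode antiviral effectors and are switched on by type I and type III interferon. Many carry a repeat of GAAA in the promoter, the core of the interferon-stimulated response element. The stretches below are the 130 bases before the RefSeq start of 4 such genes that met the criterion, on GRCm38.p6, shown to make the shared element visible. Capitals mark matches to GAAANNGAAA on either strand. They lie at chr4:156200819-156200948 on the minus strand for Isg15, chr5:120777660-120777789 on the minus strand for Oas3, chr19:34640759-34640888 on the plus strand for Ifit1 and chr12:26456453-26456582 on the minus strand for Rsad2.
Isg15: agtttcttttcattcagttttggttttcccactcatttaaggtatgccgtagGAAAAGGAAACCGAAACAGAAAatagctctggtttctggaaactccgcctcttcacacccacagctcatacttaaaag
Oas3: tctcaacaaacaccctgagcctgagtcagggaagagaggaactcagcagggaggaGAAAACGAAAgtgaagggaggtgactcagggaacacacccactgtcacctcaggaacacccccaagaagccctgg
Ifit1: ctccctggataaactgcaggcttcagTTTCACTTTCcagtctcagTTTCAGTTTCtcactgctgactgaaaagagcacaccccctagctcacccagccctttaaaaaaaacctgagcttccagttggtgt
Rsad2: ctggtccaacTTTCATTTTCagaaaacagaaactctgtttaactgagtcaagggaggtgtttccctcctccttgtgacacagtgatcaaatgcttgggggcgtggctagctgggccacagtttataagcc
Of 27025 genes with a RefSeq promoter window of 300 bases, 250 before and 50 after the start, 3.99% held GAAANNGAAA. Of the interferon-stimulated genes tested, 29 had a window and 18 held it. Of the 12 with a window that met the criterion, 9 held it: Apol9a, Apol9b, Ifit1, Ifit1bl1, Ifit3, Isg15, Oas3, Rsad2 and Trim30a. A match is a description of letters and not a bound site.

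Of 40 interferon-stimulated genes tested, 16 met the criterion higher (40%, against 3.76% of all protein-coding genes) and 0 lower, with a median log2 fold change of 0.32. Usp18, the protease that removes ISG15 and damps interferon signalling, was 8.96 and 9.85 CPM in WT replicates 1 and 2 and 17.7 and 23.8 CPM in DDX5KO replicates 1 and 2 (log2 fold change 1.13, SE 0.16, adjusted p = 0.0517). Isg15, the ubiquitin-like modifier itself, was 3.51 and 4.45 CPM in WT and 5.14 and 12.9 CPM in DDX5KO (1.07, SE 0.28, adjusted p = 0.198). Rsad2, the antiviral enzyme viperin, was 4.55 and 4.45 CPM in WT and 6.34 and 16.5 CPM in DDX5KO (1.20, SE 0.31, adjusted p = 0.202). In both of these the 2 genotypes did not overlap and DDX5KO replicate 2 was the highest mouse.

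The oligoadenylate synthetases sense viral double-stranded RNA. Oas3 was 24.6 and 20.2 CPM in WT and 31.4 and 65.8 CPM in DDX5KO (1.03, SE 0.27), and Oasl2 was 38.5 and 35.1 CPM in WT and 42.6 and 85.2 CPM in DDX5KO (0.71, SE 0.24). Oasl1 was 58.5 and 58.4 CPM in WT and 101 and 79.6 CPM in DDX5KO, with the higher value in replicate 1 (0.62, SE 0.14, adjusted p = 0.155). Ifit1, which blocks translation of viral RNA, was 13.0 and 9.85 CPM in WT and 13.5 and 36.3 CPM in DDX5KO (0.97, SE 0.35), so only DDX5KO replicate 2 stood clear of the WT mice. Mx1, an antiviral dynamin-like GTPase, was 3.56 and 5.94 CPM in WT and 12.5 and 8.41 CPM in DDX5KO (1.18, SE 0.30). Of the signalling chain, Stat2 and Irf9 had log2 fold changes of 0.20 and 0.05, below the list median of 0.32. Irf7 had 0.48, above that median.

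Without DDX5KO replicate 2, 5 interferon-stimulated genes met the criterion higher and 1 lower, and the median was 0.19. The 5 higher genes were Usp18, Oasl1, Mx1, Apol9a and Irf7, with log2 fold changes of 0.92, 0.80, 1.42, 0.75 and 0.55 in that fit, and the lower one was Dhx58 at −0.74. Without the replicate block 14 met it, and without WT replicate 1 the count was 10.

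In the colon of the same mice the interferon-stimulated genes lay on the other side. There 11 of 43 met the criterion lower and 0 higher, against 4.06% and 2.66% of all protein-coding genes, with a median log2 fold change of −0.46. In each of the 11, DDX5KO replicate 1 held the lowest colon value. Isg15 was 17.1 and 18.2 CPM in the WT colon and 7.05 and 13.2 CPM in the DDX5KO colon, and Oasl2 was 99.7 and 97.1 CPM against 36.0 and 83.2 CPM. The part of this 1 library in the difference between tissues was not tested. The difference of the genotype effect between ileum and colon was above 0 for 42 of 43 genes, with a median of 0.98 against 0.01 over all genes tested. It had an unadjusted p under 0.05 for 27 of 43, all higher in the ileum, where 4.36% of all protein-coding genes were higher and 2.48% lower at that threshold. No gene of the list had an adjusted p under 0.05 for this difference in edgeR's quasi-likelihood test; the smallest was 0.0823. For Usp18 the difference was 1.84 (SE 0.27, adjusted p = 0.222) and for Ifit1 1.74 (SE 0.18, adjusted p = 0.0959).

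**Figure D4:**
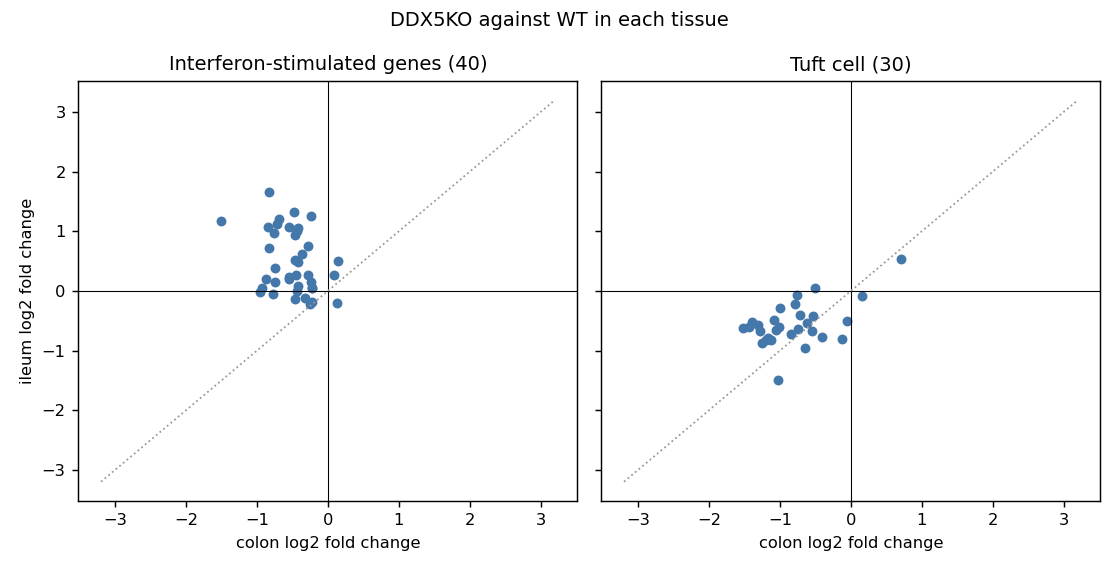
Log2 fold change of DDX5KO against WT in the ileum on the y axis and in the colon on the x axis, 1 point per gene tested in both tissues, for 40 interferon-stimulated genes at the left and 30 tuft cell genes at the right; the dotted line marks equal change. Interferon-stimulated genes sat mostly above the dotted line with a colon median of −0.46 over the 43 tested there, and tuft cell genes were mostly below 0 in both tissues.

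Slc8a1 was the 1 gene whose genotype effect differed between the tissues at an adjusted p under 0.05 (0.00617% of 16208 genes tested). In the colon it was 72.5 and 73.0 CPM in WT and 32.3 and 63.1 CPM in DDX5KO, above the WT ileum level. The ileum effect exceeded the colon effect by 4.98 on the log2 scale (SE 0.30, adjusted p = 0.0154). S100g, the calcium-binding protein calbindin of the enterocyte, was lower at the criterion in the ileum, at 28.5 and 41.6 CPM in WT and 28.3 and 9.57 CPM in DDX5KO (−0.97, SE 0.39). The groups for S100g were set apart by a small margin in replicate 1 and a wide one in replicate 2. The other 6 genes of calcium absorption tested did not meet the criterion.

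The unfolded protein response raises chaperones and degradation factors of the endoplasmic reticulum when folding load is high. Some of its target promoters carry the endoplasmic reticulum stress element, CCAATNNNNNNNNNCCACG, which ATF6 and XBP1 are known to use. The 130 bases before the RefSeq start of 3 members that met the criterion are shown because they hold this rare element, with the match on either strand in capitals. They lie at chr2:34771960-34772089 for Hspa5, chr15:88819516-88819645 for Creld2 and chr19:6046446-6046575 for Syvn1, all on the plus strand of GRCm38.p6.
Hspa5: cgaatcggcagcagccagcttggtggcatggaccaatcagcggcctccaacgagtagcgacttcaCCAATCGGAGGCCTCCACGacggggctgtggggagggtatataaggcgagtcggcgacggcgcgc
Creld2: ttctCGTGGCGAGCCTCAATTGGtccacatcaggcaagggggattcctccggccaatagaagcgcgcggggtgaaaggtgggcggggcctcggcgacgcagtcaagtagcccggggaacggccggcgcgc
Syvn1: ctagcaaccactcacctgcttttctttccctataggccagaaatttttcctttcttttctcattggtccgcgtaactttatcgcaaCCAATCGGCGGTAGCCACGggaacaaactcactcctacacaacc
Among all genes with a window 0.137% held the element, and 9 of the 23 unfolded protein response genes tested that had a window did, 3 of them among the 5 at the criterion.

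Of 26 unfolded protein response genes tested, 6 met the criterion higher and 0 lower, against 3.76% and 2.69% of all protein-coding genes, 25 had a log2 fold change above 0, and the median was 0.23. Syvn1, the ubiquitin ligase of endoplasmic reticulum degradation, was 42.4 and 43.1 CPM in WT replicates 1 and 2 and 65.9 and 81.9 CPM in DDX5KO replicates 1 and 2 (0.78, SE 0.14, adjusted p = 0.0739). Its partner Herpud1 was 72.1 and 59.7 CPM in WT and 157 and 87.9 CPM in DDX5KO (0.85, SE 0.16, adjusted p = 0.0936). Hspa5, the main chaperone of the endoplasmic reticulum, was 625 and 552 CPM in WT and 956 and 839 CPM in DDX5KO (0.61, SE 0.17). The genotypes did not overlap for any of the 3. Creld2 (0.66), Manf (0.50) and Chac1 (0.92) were the other members at the criterion. The transcription factor Xbp1 had 0.33, Atf4 −0.05 and Ddit3, which marks prolonged stress, 0.14. The count was 8 without DDX5KO replicate 2 and 6 without the block, and lay between 2 and 8 over 13 alternatives, with 2 without DDX5KO replicate 1 and 3 without WT replicate 2.

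Cytosolic heat shock genes met the criterion higher for 5 of 17 tested, against 3.76% of all protein-coding genes, with a median of 0.31. Hspa8, the constitutive cytosolic chaperone, was 849 and 920 CPM in WT and 1479 and 1320 CPM in DDX5KO (0.66, SE 0.18, adjusted p = 0.229). Hsph1, its nucleotide exchange factor, was 30.1 and 87.7 CPM in WT and 108 and 147 CPM in DDX5KO (1.28, SE 0.23), so the WT mice differed. Stip1, Chordc1 and Bag3 had 0.59, 0.60 and 0.50. Without WT replicate 1 no heat shock gene met the criterion higher and 2 met it lower, without DDX5KO replicate 2 the count was 1, and without WT replicate 2 it was 8. The heat shock element GAANNTTCNNGAA was held by 0.662% of all genes with a promoter window. Of 14 heat shock genes tested with a window 4 held it, 2 of them among the 4 at the criterion.

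Paneth cell genes encode alpha-defensins and other antimicrobial proteins. Of 24 tested, 10 met the criterion higher and 0 lower, against 3.76% and 2.69% of all protein-coding genes, with a median log2 fold change of 0.43. AY761184, an alpha-defensin gene, rose from 88.3 and 42.8 CPM in WT replicates 1 and 2 to 199 and 168 CPM in DDX5KO replicates 1 and 2 (log2 fold change 1.56, SE 0.19, adjusted p = 0.0288). Defa29 rose from 41.5 and 11.9 CPM to 111 and 74.5 CPM (1.99, SE 0.25, adjusted p = 0.0291). Defa34, Defa35, Defa5, Defa3, Defa23, Gm14851 and Gm15293 met the criterion with log2 fold changes from 0.51 to 1.75. Alpha-defensins are near-identical copies: between 33.5% (AY761184) and 99.7% (Defa5) of the 50-base stretches of these 9 genes occur in other transcripts, and reads that map to several copies were not counted, so the split among them is uncertain.

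Other Paneth cell products are not defensins. Habp2, a secreted protease, was 27.2 and 18.6 CPM in WT and 32.2 and 38.0 CPM in DDX5KO (0.63, SE 0.20). Mmp7, which activates defensins, was 186 and 118 CPM in WT and 189 and 215 CPM in DDX5KO (0.44, SE 0.19), and the lysozyme gene Lyz1 was 1785 and 930 CPM in WT and 935 and 1030 CPM in DDX5KO (−0.39, SE 0.26). WT replicate 2 held the lowest summed level of the list, 12280 CPM, against 18340 CPM in WT replicate 1 and 17490 and 19410 CPM in DDX5KO. The count was 3 without the block, 4 without DDX5KO replicate 2, 3 without DDX5KO replicate 1 and 3 without WT replicate 2.

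Enteroendocrine cell genes met the criterion higher for 8 of 24 tested and lower for 0, against 3.76% and 2.69% of all protein-coding genes, with a median of 0.48. Chga and Chgb, the granins of hormone granules, were 14.9 and 13.8 CPM and 22.7 and 22.8 CPM in WT replicates 1 and 2, and 31.2 and 23.8 CPM and 39.1 and 34.7 CPM in DDX5KO replicates 1 and 2. Their log2 fold changes were 0.93 (SE 0.16, adjusted p = 0.0608) and 0.70 (SE 0.14, adjusted p = 0.118), with no overlap between the genotypes. Among hormones, Sct, which encodes secretin, was 11.8 and 12.1 CPM in WT and 25.1 and 12.9 CPM in DDX5KO (0.63, SE 0.23), and Pyy, the ileal satiety peptide, was 4.37 and 4.86 CPM in WT and 7.99 and 6.20 CPM in DDX5KO (0.63, SE 0.24). Neurog3, the factor that commits cells to this lineage, was 0.315 and 0.810 CPM in WT and 1.56 and 1.58 CPM in DDX5KO (1.57, SE 0.52), a level of few counts. The prohormone-processing enzyme Cpe had a log2 fold change of 1.24, the granin Scg2 1.05 and the transcription factor Insm1 1.03. Without DDX5KO replicate 2 the count was 7 and without the block 7. DESeq2 with the block gave 3, and so did leaving out WT replicate 1. In the colon, 8 of 26 members met the criterion higher and 2 lower, against 2.66% and 4.06%.

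Goblet cell genes met the criterion higher for 3 of 28 tested, against 3.76% of all protein-coding genes, with a median of 0.15. The secreted lectin Zg16 was 584 and 544 CPM in WT and 1204 and 779 CPM in DDX5KO (0.78, SE 0.19, adjusted p = 0.181). The trefoil peptide Tff3 stood at 0.52 and the mucus protein Fcgbp at 0.50 on the log2 scale. Muc2, the gel-forming mucin, was 7739 and 6955 CPM in WT and 7014 and 9588 CPM in DDX5KO, a difference smaller than the spread between the DDX5KO mice. Without the block 1 goblet cell gene met the criterion, without either WT mouse 0 did, without DDX5KO replicate 1 it was 1 and without DDX5KO replicate 2 it was 6. Stem cell and crypt genes showed little: of 20 stem cell genes tested Aqp4 (−0.85) met the criterion, Lgr5 and Olfm4 had log2 fold changes of −0.09 and 0.00, and of 40 cell cycle genes Ccnb2 (−0.57) met it. Wnt targets (18 tested) and Notch pathway genes (16 tested) had 0 members at the criterion in either direction.

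**Figure D5:**
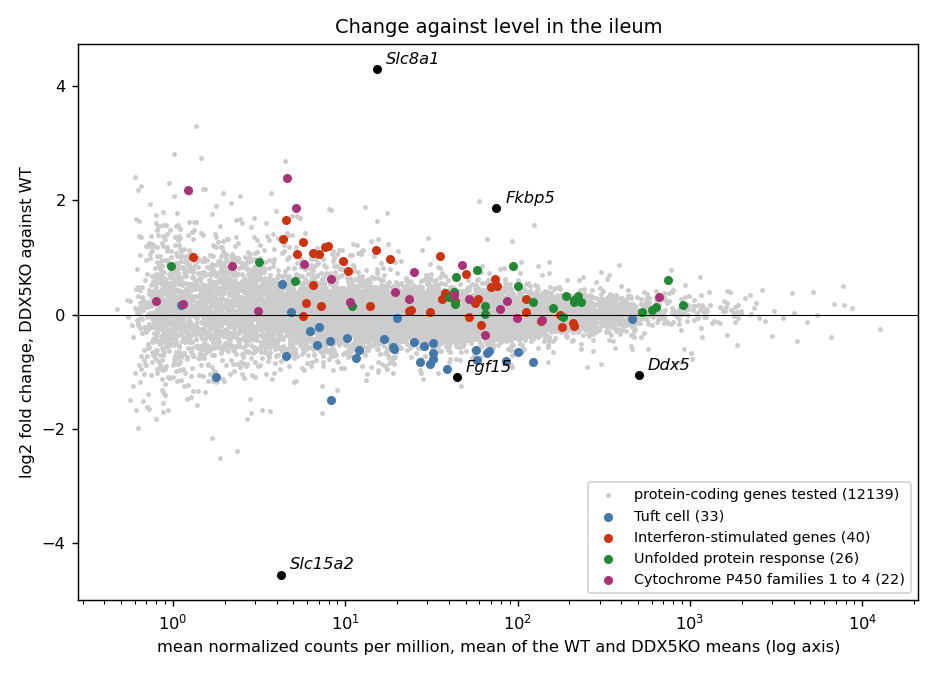
Log2 fold change of DDX5KO against WT on the y axis against mean CPM on a log x axis for 12139 protein-coding genes tested, in grey, with 4 lists in colour and 5 genes labelled in black. Slc8a1 at 4.29 and Slc15a2 at −4.55 lie outside the cloud, tuft cell genes lie mostly below 0 and the unfolded protein response genes mostly above 0, including at high levels.

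Absorptive functions moved gene by gene. Over all protein-coding genes tested, 2.69% met the criterion lower and 3.76% higher. Fgf15, the ileal hormone that reports bile acids to the liver, was 58.8 and 61.6 CPM in WT replicates 1 and 2 and 33.0 and 23.7 CPM in DDX5KO replicates 1 and 2, a log2 fold change of −1.10 (SE 0.16, adjusted p = 0.0543). The genotypes were separate, and without the block the adjusted p was 0.298. The bile acid importer Slc10a2 was 694 and 593 CPM in WT and 1115 and 615 CPM in DDX5KO (0.37), and Fabp6 followed the replicate number, at 2037 and 868 CPM in WT and 2103 and 1003 CPM in DDX5KO (0.13). Of 9 genes of bile acid uptake tested, Fgf15 and Abcc2 met the criterion, in opposite directions, and without DDX5KO replicate 2, 1 was lower and 4 higher.

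Of 32 genes of lipid absorption tested, 3 were lower and 1 higher at the criterion, with a median of 0.20 and against 2.69% and 3.76% of all protein-coding genes. Without DDX5KO replicate 2, 1 was lower and 9 higher with a median of 0.39, and without DDX5KO replicate 1, 4 were lower and 2 higher with a median of −0.14. Without WT replicate 1 there was 1 lower and 0 higher, and without WT replicate 2 there were 2 of each. Fabp1, the liver-type fatty acid binding protein, was 36.4 and 56.8 CPM in WT and 23.9 and 21 CPM in DDX5KO (−1.01, SE 0.20, adjusted p = 0.0991). The sterol exporter subunit Abcg8 was 94.4 and 72.5 CPM in WT and 65.8 and 49.0 CPM in DDX5KO (−0.54, SE 0.13), and Soat2, which esterifies cholesterol, had −0.58. The apolipoprotein Apoc3 was higher at 0.64, while Apoa1 (0.34) and Mttp (0.04), which build chylomicrons, did not meet the criterion. Fabp2, the intestinal family member, was 1346 and 846 CPM in WT and 2174 and 599 CPM in DDX5KO (0.10). Among 33 PPAR alpha and ketogenesis genes, Angptl4 (1.78) and Aadac (1.21) were among those higher at the criterion, and among 26 cholesterol synthesis genes Mvk (−0.55) was lower, with 22 of the 26 below 0 and a median of −0.15.

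Brush border hydrolases met the criterion higher for 4 of 19 tested and lower for 1, against 3.76% and 2.69% of all protein-coding genes. This balance moved with the DDX5KO library left out. Without DDX5KO replicate 2, 11 were higher and 0 lower with a median of 0.63, and without DDX5KO replicate 1, 1 was higher and 4 lower with a median of −0.23. Without WT replicate 1 or 2 the higher count was 1 or 2. Nt5e, an ectonucleotidase of the villus tip, was 13.3 and 20.2 CPM in WT and 58.2 and 28.7 CPM in DDX5KO (1.34, SE 0.32). Treh, Ggt1 and Alpi had 0.54, 0.63 and 0.56, and the protease Mep1b was 1243 and 991 CPM in WT and 910 and 429 CPM in DDX5KO (−0.83, SE 0.22). In each of Nt5e, Treh, Ggt1 and Alpi the value of DDX5KO replicate 1 exceeded that of replicate 2. The amino acid transporters Slc16a10 (0.80) and Slc7a15 (1.13) and the monocarboxylate transporter Slc5a12 (1.67) were higher, each also with the larger value in DDX5KO replicate 1. The metal-binding proteins Mt1 and Mt2 were lower at −0.87 and −0.58, mostly through DDX5KO replicate 2. Mt1 was 419 and 352 CPM in WT and 318 and 139 CPM in DDX5KO. Mt2 was 37.5 and 37.1 CPM in WT and 36.3 and 16.4 CPM in DDX5KO. Without DDX5KO replicate 2 their log2 fold changes were −0.28 and −0.04. The bicarbonate transporter Slc4a7 was 107 and 137 CPM in WT and 63.0 and 64.9 CPM in DDX5KO (−0.92, SE 0.14, adjusted p = 0.0563). Guca2b, which encodes uroguanylin, was 107 and 103 CPM in WT and 197 and 146 CPM in DDX5KO (0.69, SE 0.15).

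RNA-binding proteins are the class DDX5 itself belongs to. Of 52 other DEAD-box and DEAH-box helicases tested, 1 met the criterion, higher, against 3.76% of all protein-coding genes. It was Ddx17, the closest relative of Ddx5, at 241 and 274 CPM in WT and 423 and 410 CPM in DDX5KO. Its log2 fold change was 0.70 (SE 0.16, adjusted p = 0.145 in edgeR's quasi-likelihood test). A list of hnRNP and SR splicing factors, which also holds other RNA-binding proteins, had 42 members tested. Of these, 4 were lower at the criterion (9.52%, against 2.69% of all protein-coding genes) and 0 higher, with a median of −0.17. Among the 4 were Rbm3 and Cirbp, RNA-binding proteins known to be induced by mild cold. Rbm3 and Cirbp were 138 and 96.0 CPM and 25.3 and 16.3 CPM in WT, and 83.6 and 46.5 CPM and 10.2 and 10.2 CPM in DDX5KO. Their log2 fold changes were −0.88 (SE 0.14, adjusted p = 0.0579) and −1.01 (SE 0.19, adjusted p = 0.0920). Hnrnpdl and Hnrnpd had −0.55 and −0.54. The count of 4 was 2 without WT replicate 1 and 6 without DDX5KO replicate 2. Of 14 microRNA processing genes Ago3 (−0.51) met the criterion, and cytoplasmic ribosomal proteins (80 tested) and nuclear-encoded respiratory chain genes (78 tested) had 0 members at the criterion, with medians of 0.00 and 0.05.

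Smaller groups showed single genes. In the fit of all 4 libraries, 2.69% of all protein-coding genes tested met the criterion lower and 3.76% higher. Among 24 p53 targets, Eda2r (2.81) and Phlda3 (1.57) were higher from WT levels under 1 CPM, and Fas (−0.73) was lower. Among 17 clock genes, Dbp was 4.28 and 1.89 CPM in WT and 23.4 and 2.52 CPM in DDX5KO, Ciart 0.405 and 0.472 CPM in WT and 3.22 and 0.841 CPM in DDX5KO, and Nfil3 24.8 and 22.8 CPM in WT and 8.82 and 21.8 CPM in DDX5KO. For these 3 clock genes DDX5KO replicate 1 held the value far from the others. Without DDX5KO replicate 2, 9 clock genes were higher and 3 lower at the criterion, and without DDX5KO replicate 1, 0 were higher and 1 lower. Of 11 effector genes of type 2 immunity tested, 2 met the criterion lower and 2 higher, and without DDX5KO replicate 2 it was 3 of each. Without either WT replicate 1 or DDX5KO replicate 1 no member met it. Gsdmc2 and Gsdmc4, pore-forming gasdermins, had −0.60 (SE 0.17) and −0.54 (SE 0.19), with 51.3% and 39.0% of their 50-base stretches in other transcripts. The higher ones were Fcgbp and the mast cell protease Mcpt1 (1.42). Gsdmc4 was 1948 and 2521 CPM in WT and 1323 and 1757 CPM in DDX5KO. Of 25 microbe-induced defence genes tested, the cornified envelope genes Sprr2a1 (−0.96) and Sprr2a2 (−0.78) were lower and the cytokine Il18 (0.52) higher. Sprr2a1 and Sprr2a2 share 96.3% and 96.5% of their 50-base stretches with other transcripts. Without DDX5KO replicate 1 this list had 7 lower, and without DDX5KO replicate 2 it had 5 higher. The macrophage lysozyme Lyz2 met the criterion at 0.900 and 0.203 CPM in WT and 2.76 and 2.31 CPM in DDX5KO, while Csf1r, which defines macrophages, lay under 1 CPM in all 4 libraries.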

How the data were processed

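RNA of EDTA-released epithelial cells was sequenced in 8 libraries, from ileum and colon of 4 mice, matched across tissues by the mouse numbers in the study's supplement. The authors aligned reads to mm10 with STAR 2.6.1a, counted uniquely mapped reads over exons with featureCounts, and deposited raw counts per gene, which were used here. The deposited columns of normalized values, log2 fold changes and p-values were not used. The strand setting of the counting is not given in the sources used here, so antisense genes and their partners are uncertain. The deposited gene length column was not used. Symbols turned into dates were restored (26 in the ileum table). No per-sample column was left unmapped.

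Genes were kept with filterByExpr (minimum count 10), normalized with TMM and tested with edgeR 4.0.16 quasi-likelihood tests in R 4.3.3, with terms for replicate number and genotype and Benjamini-Hochberg adjustment. DESeq2 1.42.0 was an alternative. The pairing follows the study's harvest covariate and its description of cohoused littermates; the labels do not say which mice shared a harvest. Deviations of same-numbered libraries from their genotype means had a correlation of 0.276 over 14208 genes. With 2 libraries per genotype these deviations mirror each other, so crossed pairs give the same value with the opposite sign. The value therefore cannot show which mice belong together. Labels give separate mice; with 2 per group an exact permutation test could not go below 0.333. Replicates differed beyond sampling noise (chi-square per degree of freedom 21.5 in WT, 233 in DDX5KO). These values were computed with the repeat-like genes kept. Those genes took 4.05% and 3.93% of counts in WT replicates 1 and 2, and 0.226% and 19.5% in DDX5KO replicates 1 and 2. The 2 values therefore do not compare the genotypes for the genes tested. The difference between tissues was the interaction of tissue and genotype with the mouse as block, over 16208 genes. Fits were tested on simulated data.

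Genes named are Ddx5, up to 12 lower and 12 higher protein-coding genes with adjusted p under 0.05 and no overlap, and list members past a threshold, up to 6 per list by p, or the 3 highest where none was. Other genes were named for their function or after their values were seen. The members, lists and tests were chosen with earlier results of these data known. Positions come from GENCODE M21 (GRCm38), only for identical gene versions, and sequences from RefSeq (GRCm38.p6). Matches to CTGATTGG and ATTTGCAT were also counted, in 2 of 3 class II and 1 of 19 tuft cell genes at the criterion with a window, against 4.70% and 1.97% of all genes. Some list members are not reported here.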

Additional observations from a re-analysis of the deposited data

Results flagged for a closer look

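Slc8a1 was the 1 gene whose DDX5KO effect in the ileum differed from that in the colon at an adjusted p under 0.05, by a test of the difference itself (edgeR's quasi-likelihood test, adjusted p = 0.0154). The ileum effect minus the colon effect was 4.98 on the log2 scale (SE 0.30), and both DDX5KO ileum libraries lay above both WT ileum libraries while both DDX5KO colon libraries lay below both WT colon libraries. With RLE normalization the difference remained past the threshold. Groups of 2 are too small to look for single outlying samples.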

How the results depend on the processing

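With 2 mice per genotype, the number of genes past the adjusted threshold was set largely by the fit. It was 20 in the fit reported and with a mean of at least 10 counts, 1 without the replicate block, 1 with the pairs crossed, 1 when the colon libraries joined the fit, 39 with DESeq2 and the replicate block, 54 with DESeq2 without it, 126 with RLE normalization, 98 with the repeat-like genes kept and 411 without a filter on low counts, and between 1 and 20 with each library left out in turn. All 20 genes were past the threshold with RLE normalization and with the repeat-like genes kept, and 19 with DESeq2 and the block. The cause of these differences was not tested. At the study criterion 783 protein-coding genes were called, 360 with DESeq2 and the block, 451 with DESeq2 without it, 236 where the change had to reach 1 on the log2 scale, and between 435 (without WT replicate 2) and 1312 (without DDX5KO replicate 2) with a library left out. The difference between tissues was called for 1 gene, and for 2 without the mouse as block. Fits that leave out a library assume that the lone library varies like the other genotype. Directions that turned when a library was left out, with the lowest and highest log2 fold change over the libraries left out, were those of Gm25911 (−1.02 to 3.85), Dbp (−0.34 to 2.87), Defa35 (−0.0603 to 3.28), Defa34 (−0.199 to 1.47), Slc40a1 (−1.37 to 0.0746), H2-Aa (−2.13 to 0.137), H2-Ab1 (−1.70 to 0.279), Cd74 (−1.64 to 0.263) and H2-Eb1 (−1.57 to 0.305). For the class II genes the positive values came without WT replicate 1 and, for H2-Ab1, Cd74 and H2-Eb1, also without DDX5KO replicate 2. Depth limits genes under 5 CPM most.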
